A study of Mus musculus with 6 samples.

Results

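The MAP kinase cascade genes described here are those whose symbols begin with Mapk, Map2k, Map3k or Map4k. The array annotation held 37 such genes among 10698 named genes, on 74 of 16281 probes. The genes were chosen by name, but with earlier results of these data known. They comprise 3 MAP4K genes, 12 MAP3K genes, 6 MAP2K genes, 9 MAPK genes, 2 MAPK-activated protein kinase (MAPKAPK) genes and 5 genes of proteins that bind these kinases or hold them together. Of the 74 probes, 59 had a value on all 6 arrays, 11 on some arrays and 4 on none. As a result 35 genes were tested, and Map2k6 and Map3k7 (TAK1) were not. The classical ERK genes were not analysed here.

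All RNA came from RAW 264.7, a mouse macrophage cell line. One group was given lipopolysaccharide (LPS, the endotoxin of Gram-negative bacteria) at 100 ng/ml with LPS-binding protein (LBP, the serum protein that carries LPS to its receptor) at 100 pM for 2 h, and the other was left untreated. Each of 6 2-colour arrays carried a treated and an untreated RNA, with the treated RNA in Cy5 on 3 arrays and in Cy3 on the other 3, numbered as sets 1 to 3 in each dye orientation. No label says that the sets were separate cultures, so each p-value measures only the spread between these sets, which may be technical. Neither agent was given alone in the samples analysed here, so their parts cannot be told apart.

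Values are log2 ratios of transcript level, treated over untreated, so that 1 is a doubling. Ratios from arrays that had treated RNA in Cy3 were given the opposite sign, and the arrays of a set were averaged. A mean ± SD is over the 3 sets, and genes are said to have risen or fallen where limma gave an adjusted p under 0.05 over all 11231 features, meaning genes or unnamed probes measured on every array. The direction, Cy5 over Cy3, is the likely one from the labels but is not stated. With it, all 10 genes known to rise with LPS that were used as a check, Tnf and Il1b among them, were higher (median 2.98). They too were listed with earlier results of these data known. A ratio cannot separate fewer cells of a type from less RNA per cell, and it gives no level, so the line could not be checked for its markers. Between the samples, 2 of 10 tested macrophage markers were higher and 4 lower, and of 7 lymphocyte, 5 fibroblast and 2 epithelial markers 0 passed in limma (3 at an unadjusted p under 0.05, all higher, of which 2 lymphocyte and 1 fibroblast). The part of these marker shifts in the results was not tested.

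In a MAP kinase cascade a signal from a receptor passes through kinases that phosphorylate one another in turn. MAP4K enzymes or adaptor complexes activate a MAP3K, which activates a MAP2K, which activates a MAPK of the ERK, JNK or p38 family, and MAPKs switch on downstream kinases and transcription factors. In macrophages LPS acts through the receptor TLR4, and the p38, JNK and ERK branches are known for controlling the production and mRNA stability of inflammatory cytokines. The arrays measured transcripts of these kinases and not their phosphorylation.

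After 2 h with LPS and LBP, 11 of the 35 tested cascade genes (31.4%) had changed, 6 higher and 5 lower, against 14.8% of all features. The share of all features was 7.35% for higher and 7.45% for lower. The higher genes were Map3k8, Map3k11, Map2k4, Mapk11, Mapkapk2 and Mapkapk5, and the lower ones Map3k14, Map3k1, Map3k4, Map3k5 and Mapk14. Of the 11 changed members 6 were MAP3K genes, 2 higher and 4 lower of 11 tested, and both MAPKAPK genes were higher. The other tiers had 1 higher MAP2K gene of 5, 1 higher and 1 lower MAPK gene of 9, and 0 of 3 MAP4K and 0 of 5 binding protein genes (0 in both also at an unadjusted p under 0.05, limma). These counts depended on single sets and arrays, as did those of all features. Without set 1 there were 2 higher and 4 lower members, while all features went from 826 higher and 837 lower to 572 and 484. Without set 3 there were 2 higher and 3 lower members, and 352 and 211 features. Among the members, without the Cy5 array of set 2 there were 3 higher and 3 lower, without that of set 3 there were 3 and 4, and without the Cy3 array of set 1 or of set 2 there were 2 and 4. In the same order, all features numbered 352 higher and 181 lower, 692 and 637, 463 and 360, and 393 and 341.

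**Figure D1:**
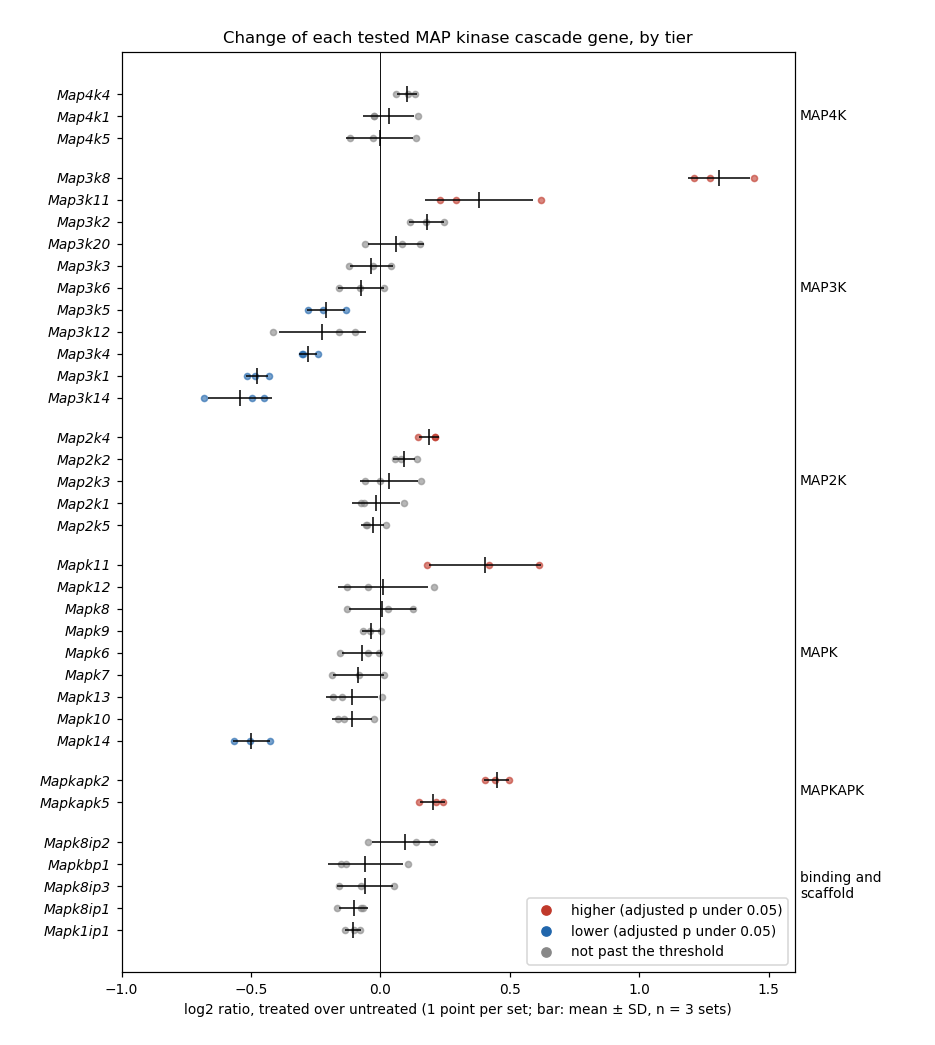
Log2 ratio, treated over untreated, of each tested cascade gene, grouped by tier, with 1 point per set (red higher, blue lower, grey not past the threshold) and a bar for the mean ± SD of the 3 sets. Map3k8 stands alone at 1.31, while Map3k14, Mapk14 and Map3k1 lie lowest, from -0.54 to -0.48.

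Map3k8, a MAP3K gene, had the largest rise of the cascade. Map3k14 of the same tier had the lowest mean. Mapk14 was lower, however, with Cy5 arrays alone (-0.52 against -0.45) and with 1 probe per gene (-0.51 against -0.45). Without the Cy3 array of set 2 Mapk14 and Map3k14 were near equal (-0.493 and -0.490). With missing values allowed Mapk14 was also lower (-0.62 against -0.54), but this brings in a further Mapk14 probe with 1 value, -2.66. Map3k8 encodes Tpl2, the kinase that links TLR4 to the ERK branch. Its ratios were 1.36, 1.18 and 1.17 in sets 1 to 3 with the treated RNA in Cy5, and 1.53, 1.36 and 1.25 with it in Cy3. All 6 arrays were thus far above 0, with little difference between the orientations once the probes were averaged. By probe, 1 read 1.08 in Cy5 and 1.54 in Cy3, and the other 1.39 and 1.22. The mean was 1.31 ± 0.12 (n = 3 sets, 2.48-fold higher, limma adjusted p = 5.75e-05, 95% interval 1.17 to 1.45), and its 2 complete probes gave 1.31 and 1.30.

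Map3k14 encodes NIK, the kinase that starts the non-canonical NF-κB pathway. It stood at -0.38, -0.53 and -0.46 with the treated RNA in Cy5 and at -0.52, -0.84 and -0.53 in Cy3, so every array was below 0. The mean was -0.54 ± 0.12 (1.46-fold lower, limma adjusted p = 0.00222), with probes at -0.45 and -0.64. Within each set Map3k8 exceeded Map3k14 by 1.89, 1.95 and 1.71.

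Map3k1 (MEKK1, an activator of the JNK branch) measured -0.31, -0.35 and -0.35 with the treated RNA in Cy5 and -0.55, -0.68 and -0.61 in Cy3. Every array was below 0, and the Cy3 arrays were the lower ones. Its mean of -0.48 ± 0.04 varied less between sets than the falls of Map3k14 and Mapk14 (1.39-fold lower, limma adjusted p = 0.00129). It rests on 1 complete probe. The other probe had values on 5 arrays, from -0.51 to 0.09. With exact zeros kept as ratios the mean was -0.30 (adjusted p = 0.0350).

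Map3k4 (MEKK4, which Gadd45 proteins activate) gave -0.28, -0.28 and -0.32 with the treated RNA in Cy5 and -0.33, -0.21 and -0.28 in Cy3, a narrow range below 0. This range averages 2 complete probes whose orientations differed in opposite ways, -0.38 in Cy5 and -0.17 in Cy3 against -0.20 and -0.37. The mean was -0.28 ± 0.03 (1.21-fold lower, limma adjusted p = 0.00969). It missed the threshold without set 3 (adjusted p = 0.1225) and without the Cy5 array of set 2 (0.119), at an almost equal mean of -0.27 in both.

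Map3k5 (ASK1, a kinase of the oxidative stress response) gave -0.26, -0.29 and -0.25 with the treated RNA in Cy5 and -0.30, 0.02 and -0.19 in Cy3. The Cy3 array of set 2 was the only one not below 0. The mean was -0.21 ± 0.07 (1.16-fold lower, limma adjusted p = 0.0383), and the call held without set 2 (0.0174) but was lost without either of the other sets or any 1 array (0.0630 to 0.426). A further probe, with a value on 1 array, read -3.43 there. With missing values allowed, which brings this probe in, the mean was -0.48 (limma adjusted p = 0.195), and with exact zeros kept as ratios -0.39 (0.477).

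Map3k11 (MLK3, another activator of JNK) was the second MAP3K gene to rise. Its ratios were 0.75, 0.43 and 0.33 with the treated RNA in Cy5 and 0.49, 0.15 and 0.13 in Cy3. All arrays were above 0, but set 1 was the highest in both orientations. The mean was 0.38 ± 0.21 (1.30-fold higher, limma adjusted p = 0.0283). It missed the threshold without set 1 (0.05225) or set 3 (0.08975) and without single arrays, namely the Cy3 arrays of sets 1 and 2 (0.122 and 0.0566) and the Cy5 arrays of sets 2 and 3 (0.22 and 0.0769).

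The remaining 5 tested MAP3K genes did not pass. Map3k2 (MEKK2) came closest among them to the threshold, at 0.18 ± 0.07 (limma adjusted p = 0.0616, and 0.0447 without set 2). Map3k12 (DLK, known from neurons) was at -0.23 ± 0.17 (adjusted p = 0.0908), with 1 array, the Cy5 array of set 2, at -0.85. Without that array it was at -0.08 (adjusted p = 0.571). Map3k20 (ZAK, a sensor of ribosome stress) was at 0.06 ± 0.11 and Map3k6 (ASK2) at -0.07 ± 0.09. Map3k3 (MEKK3) was the member of this tier nearest 0, at -0.04 ± 0.08 (95% interval -0.16 to 0.09). Its arrays read 0.18, -0.04 and 0.05 with the treated RNA in Cy5 and -0.09, -0.20 and -0.11 in Cy3. Map3k7, which encodes TAK1, the MAP3K directly below the TLR adaptor proteins, had values on 5 arrays: -0.00 and 0.13 for sets 1 and 3 in Cy5, and 0.32, 0.35 and 0.32 for sets 1 to 3 in Cy3. With the missing value allowed its set means were 0.16, 0.35 and 0.23, of which set 2 rests on 1 array (mean 0.25 ± 0.10, limma adjusted p = 0.0496).

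The MAP4K genes, at the top of the cascade, had means between -0.00 and 0.10, and 0 of 3 passed (0 at an unadjusted p under 0.05, limma). Map4k4 (HGK) was at 0.10 ± 0.04 (limma adjusted p = 0.216) and was above 0 on 6 of 6 arrays. Map4k1 (HPK1, a kinase of blood cells) was at 0.03 ± 0.10. Map4k5 had a mean of -0.00 ± 0.13 (95% interval -0.15 to 0.15), made up of -0.19, -0.17 and -0.24 with the treated RNA in Cy5 and 0.13, 0.45 and 0.01 in Cy3. All Cy5 arrays of Map4k5 were below 0 and all Cy3 arrays above it.

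Among the MAP2K genes, Map2k4 (MKK4, which activates JNK and p38) rose slightly. It gave 0.15, 0.14 and 0.22 with the treated RNA in Cy5 and 0.14, 0.28 and 0.20 in Cy3, above 0 on every array. The mean was 0.19 ± 0.04 (1.14-fold higher, limma adjusted p = 0.0412). That call was lost without any one of the 3 sets or of the 6 arrays (adjusted p from 0.07245 to 0.278), while the mean stayed between 0.17 and 0.21.

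Map2k2 (MEK2) was at 0.09 ± 0.04 (limma adjusted p = 0.263) and above 0 on 6 of 6 arrays. The p38 activator gene Map2k3 (MKK3) was at 0.03 ± 0.11 and Map2k5 (MEK5, which activates ERK5) at -0.03 ± 0.04. Map2k1 (MEK1) was nearest 0 at -0.02 ± 0.09 (95% interval -0.15 to 0.11), with arrays at 0.03, 0.07 and 0.17 in Cy5 and -0.18, -0.20 and 0.01 in Cy3. Map2k6 (MKK6), the other p38 activator gene, had 3 probes, none complete. Its best measured probe read 0.61 and 0.07 in sets 1 and 2 with the treated RNA in Cy5 and -0.22, -0.63 and -0.32 in Cy3. All 5 of these values leaned to Cy5 as deposited, whichever dye held the treated RNA. The other probes had 1 value each, 2.21 (set 1, treated RNA in Cy3) and 0.71 (set 2, treated RNA in Cy5). The set means with missing values allowed, 0.80, -0.12 and -0.32, did not share a sign (0.12 ± 0.60, limma adjusted p = 0.783).

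The MAPK genes that passed were both of the p38 family, Mapk14 lower and Mapk11 higher, and the call of Mapk11 depended on single sets and arrays. Mapk14 encodes p38α, the form that drives most cytokine responses of macrophages. It gave -0.53, -0.55 and -0.47 with the treated RNA in Cy5 and -0.48, -0.58 and -0.38 in Cy3, so all arrays lay close together and below 0. The mean was -0.50 ± 0.07 (1.41-fold lower, limma adjusted p = 0.00148), and its complete probes read -0.49 and -0.51. A further probe had a value on 1 array, -2.66.

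Mapk11, which encodes p38β, was higher. It read 0.79, -0.07 and 0.53 with the treated RNA in Cy5 and 0.43, 0.43 and 0.31 in Cy3. The Cy5 array of set 2 was the only one below 0. The mean was 0.40 ± 0.22 (1.32-fold higher, limma adjusted p = 0.0249). It rests on 1 complete probe, and the other probe had no value on any array. The call was lost without set 1 (0.08515), set 3 (0.179), the Cy3 arrays of set 1 (0.1185) or set 2 (0.285), or the Cy5 array of set 3 (0.0515). The call was also lost with a dye term (0.0528) and with Cy5 arrays alone (0.234). With exact zeros kept as ratios the mean was 0.20 (0.1685). Within the sets Mapk11 exceeded Mapk14 by 1.11, 0.75 and 0.84. Mapk12 (p38γ) was at 0.01 ± 0.18 and Mapk13 (p38δ) at -0.11 ± 0.10, and neither passed.

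The 3 JNK genes did not pass the threshold, and the values of Mapk8 moved with the dye. Mapk8 (JNK1) read -1.19, -1.24 and -1.17 with the treated RNA in Cy5 and 1.25, 1.49 and 0.91 in Cy3. All arrays were thus far from 0, in opposite directions in the 2 orientations, and the mean of the sets was 0.01 ± 0.13. One Mapk8 probe carried this gap, with deposited ratios between -2.64 and -1.78, toward Cy3, on every array whichever dye held the treated RNA. The other probe gave -0.04 and 0.16 in the orientations and a mean of 0.06 ± 0.05 (limma adjusted p = 0.502). A limma fit with a dye term over the 6 arrays passed for Mapk8 (adjusted p = 0.00919) and for no other of the 35 members, against 0.499% of all features. Probe by probe, 3 of 59 complete member probes passed the dye term, against 1.55% of all complete probes (limma). Besides that of Mapk8, they were 1 probe each of Map3k3 (0.21 in Cy5 and -0.32 in Cy3, adjusted p = 0.0481) and Mapk10 (-0.34 and 0.12, adjusted p = 0.0499). Averaging with their other probes hid both.

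Mapk9 (JNK2) had a mean of -0.04 ± 0.04, made up of -0.42 in Cy5 and 0.34 in Cy3. Its dye term had adjusted p = 0.0618 (limma). Its complete probes, at -0.16 and 0.09, differed by 0.25, the largest gap between complete probes of a member. Mapk10 (JNK3, known mainly from neurons) was at -0.11 ± 0.08 (adjusted p = 0.222). Mapk6 (ERK3, an atypical kinase) and Mapk7 (ERK5) were at -0.07 ± 0.08 and -0.09 ± 0.10 and did not pass.

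**Figure D2:**
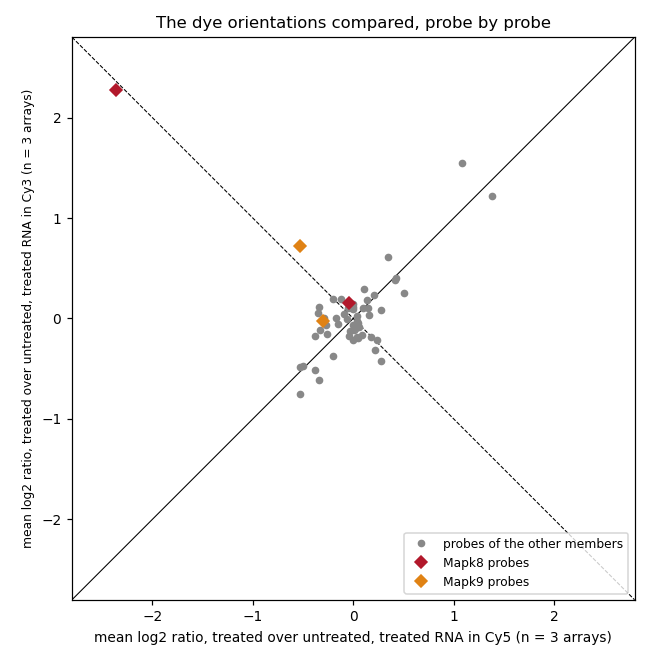
Mean log2 ratio, treated over untreated, of each complete member probe over the 3 arrays that had treated RNA in Cy5 (horizontal axis) and in Cy3 (vertical axis). Points on the solid diagonal are equal in both and points on the dashed one are opposite, where a Mapk8 probe lies at -2.36 in Cy5 and 2.27 in Cy3.

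Both genes of the MAPK-activated kinases rose. Mapkapk2 encodes MK2, the p38 target that stabilises cytokine mRNAs such as that of Tnf. It gave 0.47, 0.31 and 0.37 with the treated RNA in Cy5 and 0.52, 0.50 and 0.51 in Cy3, all above 0. The mean was 0.45 ± 0.05 (1.36-fold higher, limma adjusted p = 0.00176), with complete probes at 0.42 and 0.48. Within the sets Mapkapk2 exceeded Mapk14, the gene of its upstream kinase, by 1.00, 0.97 and 0.87.

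Mapkapk5 encodes PRAK, a kinase that binds ERK3. It read 0.14, 0.15 and 0.04 with the treated RNA in Cy5 and 0.29, 0.33 and 0.26 in Cy3, above 0 on every array and higher in Cy3. The mean was 0.20 ± 0.05 (1.15-fold higher, limma adjusted p = 0.0355). The call held without the Cy5 array of set 3 (0.03125) but was lost without any set or any other array (0.07605 to 0.207). It did not pass in either orientation alone, at 0.11 in Cy5 (0.319) and 0.30 in Cy3 (0.064). With exact zeros kept as ratios the mean was 0.12 (0.284).

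**Figure D3:**
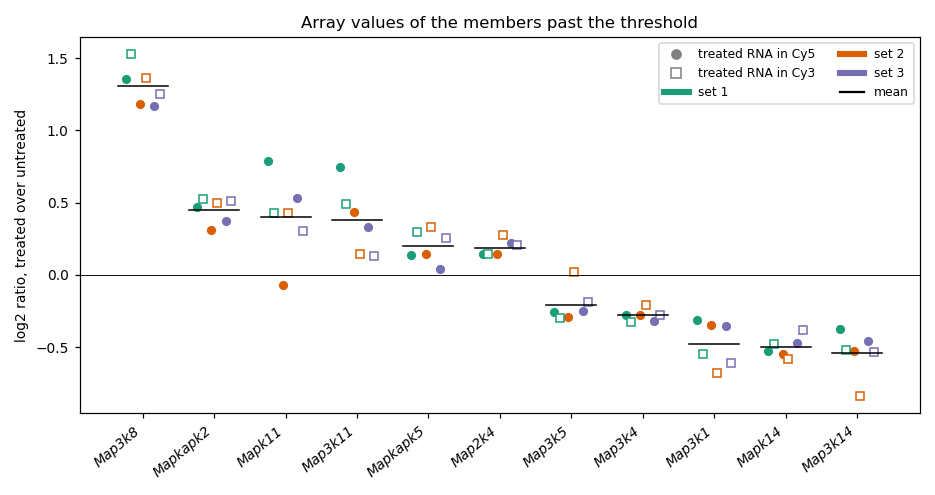
Log2 ratio, treated over untreated, on each of the 6 arrays for the 11 members past the threshold, with filled circles for treated RNA in Cy5, open squares for Cy3, a colour per set and a line at the mean. The arrays of Map3k8, Map3k14, Map3k1 and Mapk14 stay well clear of 0, while Map3k5 and Mapk11 each have 1 array on the other side of it.

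The 5 genes of binding and scaffold proteins did not pass and lay between -0.11 and 0.10. Mapk8ip1, Mapk8ip2 and Mapk8ip3, which encode the JIP scaffolds that hold JNK with its activators, were at -0.10 ± 0.06, 0.10 ± 0.13 and -0.06 ± 0.11. Mapkbp1, of a JNK-binding protein, was at -0.06 ± 0.14, with arrays at 0.11, -0.64 and -0.19 in Cy5 and 0.10, 0.37 and -0.11 in Cy3. Mapk1ip1, named for an interaction with a MAPK, was at -0.11 ± 0.03 (limma adjusted p = 0.187, 95% interval -0.21 to 0.00).

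Described by tier, the median change was 0.03 for the MAP4K genes, -0.07 for MAP3K, 0.03 for MAP2K, -0.07 for MAPK, 0.32 for MAPKAPK and -0.06 for the binding proteins, against -0.00 for all features. In sets 1 to 3 the MAPKAPK median was 0.36, 0.32 and 0.30, and the MAP3K median -0.10, -0.12 and -0.03. Only the MAP3K, MAPKAPK and binding tiers kept one sign in the 3 sets. Tiers also differed in the size of change, whatever its direction. The median absolute change was 0.23 for MAP3K, 0.03 for both MAP4K and MAP2K, 0.09 for MAPK, 0.32 for MAPKAPK, 0.10 for the binding proteins and 0.07 for all features. In sets 1 to 3 it was 0.10, 0.12 and 0.09 for all features, 0.28, 0.24 and 0.23 for MAP3K, and 0.36, 0.32 and 0.30 for the 2 MAPKAPK genes. Among all members 7 of 35 (20%) changed by over 0.3 in either direction, and 8.63% of all features did. The tiers hold few genes and were not tested against each other.

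**Figure D4:**
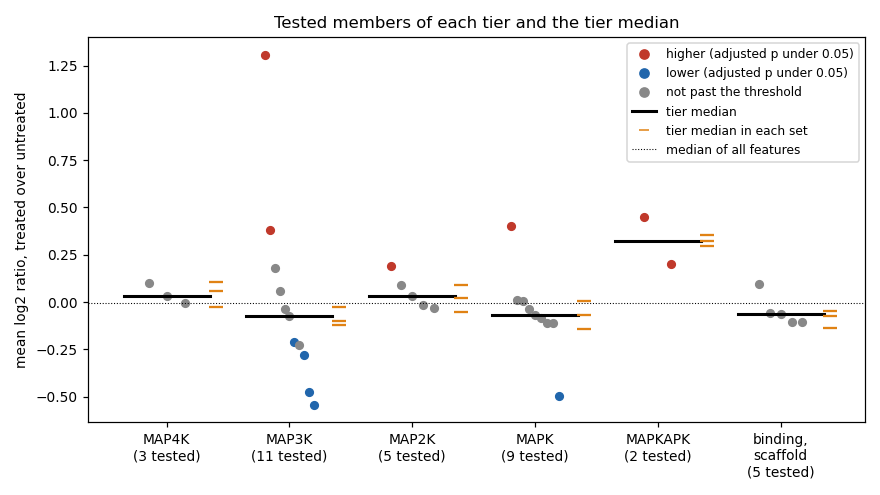
Mean log2 ratio, treated over untreated, of each tested member by tier (points), with the tier median (black line), its value in each of the 3 sets (orange dashes) and the median of all features (dotted line). The MAPKAPK medians lie between 0.30 and 0.36 in the 3 sets, and the MAP3K medians between -0.12 and -0.03.

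The signs of single arrays and the values of single probes were also counted. A total of 11 of 35 members had the same sign on all 6 arrays, against 19.1% of features. Among them were 9 of the 11 members past the threshold, and Map4k4 and Map2k2. Tested one by one, 16 of the 59 complete member probes passed, 8 higher and 8 lower, against 15% of all complete probes (limma). For 21 members with several complete probes the median range between them was 0.03, against 0.08 for all such genes.

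Promoters were considered for the 2 members with the largest rise, Map3k8 and Mapkapk2, and the 2 with the largest fall, Map3k14 and Mapk14, to set sequences of higher and lower transcripts side by side. No window of Map3k8 is reported here, so Mapkapk2 is the only risen gene among those shown. RefSeq windows of GRCm38.p6, each from 250 bases before to 50 after a gene start, were matched by gene ID for 30 of the 35 tested members, with 39 windows. Those of Mapkapk2 (chr1:131097794-131098093, minus strand), Map3k14 (chr11:103267352-103267651, minus strand) and the upstream start of Mapk14 (chr17:28691092-28691391, plus strand) follow from 5′ to 3′ on the gene's strand, with each CG dinucleotide in capitals.
Mapkapk2: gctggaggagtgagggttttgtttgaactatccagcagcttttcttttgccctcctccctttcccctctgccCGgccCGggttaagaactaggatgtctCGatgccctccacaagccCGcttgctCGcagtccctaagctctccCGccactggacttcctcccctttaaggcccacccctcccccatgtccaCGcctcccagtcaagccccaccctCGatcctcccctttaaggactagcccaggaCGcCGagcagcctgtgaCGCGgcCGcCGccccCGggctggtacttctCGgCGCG
Map3k14: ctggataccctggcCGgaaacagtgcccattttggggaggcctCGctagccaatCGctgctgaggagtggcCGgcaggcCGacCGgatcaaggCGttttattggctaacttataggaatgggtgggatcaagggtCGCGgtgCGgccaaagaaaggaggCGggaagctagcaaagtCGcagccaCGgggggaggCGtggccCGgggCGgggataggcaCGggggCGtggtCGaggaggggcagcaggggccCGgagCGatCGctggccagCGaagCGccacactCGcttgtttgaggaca
Mapk14: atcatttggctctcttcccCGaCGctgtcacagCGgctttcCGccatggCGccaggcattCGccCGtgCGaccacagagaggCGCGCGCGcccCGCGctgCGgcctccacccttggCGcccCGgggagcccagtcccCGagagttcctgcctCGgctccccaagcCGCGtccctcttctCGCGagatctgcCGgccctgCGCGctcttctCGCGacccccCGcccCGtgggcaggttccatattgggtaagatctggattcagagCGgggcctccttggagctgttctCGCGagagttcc
They hold 18, 25 and 33 CG dinucleotides at 63.3%, 65% and 68.7% G and C, where the median of all 32851 windows is 7 CG and the upper quartile 20. A second Mapk14 window, at a start further downstream (chr17:28692318-28692617), holds 18 at 50% G and C, as many CG as that of Mapkapk2. Motifs were searched on both strands. An NF-κB form (GGG, any 2 bases, TT, any base, CC) was found in 4.79% of all windows and the AP-1 motif TGANTCA in 7.81%, and 0 of the 39 member windows held either. The cyclic AMP response element TGACGTCA was in 1.79% of all windows and in 1 of the members, that of Mapk10, 29 to 22 bases before the start. A missing match says only that these letters are not in the window.

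Genes that surround the cascade were read from lists of its inputs, scaffolds, inhibitors and targets, chosen with earlier results of these data known. Of 87 tested, 21 were higher and 8 lower (limma), against the 7.35% and 7.45% of all features. Among 16 genes between TLR4 and the MAP3Ks, 2 were higher and 2 lower. Tnip1, of an inhibitor of NF-κB signalling, rose to 1.86 ± 0.11, while Tlr4, the LPS receptor itself, was at -0.89 ± 0.02 and Tab1, of a partner protein of TAK1, at -0.63 ± 0.08. A further list held kinases with other names, related to the cascade kinases but not all MAP3K or MAP4K members. Of its 8 tested genes 0 passed, with 1 higher and 1 lower at an unadjusted p under 0.05 (limma).

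Scaffold and binding genes with other names had 4 higher and 1 lower of 12. Gadd45b (2.38 ± 0.11) and Gadd45a (2.01 ± 0.21), of stress proteins that activate MEKK4, rose most, followed by Pea15a (0.82 ± 0.15), of a protein that holds ERK in the cytoplasm. The lower gene, named here after its values were seen, was Gadd45g (-0.18 ± 0.00, limma adjusted p = 0.0450), of the same protein family as Gadd45a and Gadd45b. Map3k4, the gene of MEKK4, had fallen in the same sets.

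Phosphatases and other inhibitors of MAPKs had 4 higher and 2 lower of 17. Dusp2 rose to 1.87 ± 0.15 (limma adjusted p = 2.25e-05), Dusp16 to 0.76 ± 0.12 and Dusp1 to 0.75 ± 0.10. These encode dual-specificity phosphatases, which remove the activating phosphates from MAPKs.

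Targets of MAPKs had 10 higher and 2 lower of 23 transcription factor and mRNA-binding protein genes. Myc rose to 3.42 ± 0.37, the immediate early gene Egr1 to 1.49 ± 0.14 and Ets2 to 1.19 ± 0.11. The lower genes, named here after their values were seen, were Elk3 (-0.59 ± 0.01, limma adjusted p = 0.000456) and Jun (-0.35 ± 0.19, 0.0302). Of 2 tested genes of other target kinases 0 passed, with 1 lower at an unadjusted p under 0.05 (limma). These arrays are the same as those of the cascade genes, so the lists share their samples with them.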

How the data were processed

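The authors deposited 1 log2 ratio per probe and array. No source states the log base, which was read from the form of the values. How they were normalized, corrected for background and scanned is not given in the sources used here. With no spot intensities used, precision is limited by the number of arrays. Cells of exactly 0, 10.8% of the table, were taken as missing. Of 16281 probes, 13738 carried 1 symbol in the platform annotation, 52 several and 2491 none. Gene IDs matched all 37 members to RefSeq genes of the same symbol. Array medians lay between -0.02 and 0.01.

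Averaging each gene's complete probes left 11231 features. The set means were compared with 0 by limma's lmFit and eBayes (version 3.58.1, R 4.3.3), two-sided, with 4.16 prior degrees of freedom, adjusted by Benjamini and Hochberg over all features, threshold 0.05. The procedure was checked on simulated data. Set numbers were taken as pairing the arrays: for arrays of the same number, deviations from the orientation mean, before turning, correlated with r of 0.40, 0.43 and 0.14 across features. These deviations are of Cy5 over Cy3, so they do not show a response to treatment shared within a set. After turning, the consensus correlation of arrays within a set was -0.44 (limma). The fit with the set as a replicate block used that value.

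The members and gene lists were chosen with earlier results of these data known. All members are named. Other genes were named as the up to 3 largest changes past the threshold in each list, besides the genes of the direction check. Gadd45g, Elk3 and Jun were named after their values were seen. One list counted in the total of pathway genes is not reported here on its own. Alternatives covered dye orientation, set, array, missing values, probe choice, scaling, blocking and a minimum fold. Testing single probes, and leaving members out of tier medians, were added after seeing the data.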

Additional observations from a re-analysis of the deposited data

Results flagged for a closer look

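Over the 6 arrays, 3 of 35 members had 1 array far from the others, by a gap past Dixon's 95% limit. Chance flags about 1 in 20 groups. They were Map3k5 on the Cy3 array of set 2 (0.0225), Map3k12 on the Cy5 array of set 2 (-0.85) and Map3k14 on the Cy3 array of set 2 (-0.84).

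Mapk8 differed between the dye orientations by -2.42 (Cy5 minus Cy3, limma dye term adjusted p = 0.00919). In 3 more members all arrays of one orientation lay on one side of 0 and all of the other on the opposite side, without passing the dye term in limma: Map4k5 (-0.39, adjusted p = 0.122), Mapk12 (0.45, adjusted p = 0.159) and Mapk9 (-0.76, adjusted p = 0.0618).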

How the results depend on the processing

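Of the 11 members past the threshold, 2 (Map3k8 and Map3k1) passed in all 21 alternatives and 3 (Map3k14, Mapk14 and Mapkapk2) in all but 1. For Map3k14 and Mapk14 that 1 was keeping exact zeros as ratios (adjusted p = 0.0506 and 0.168, limma), and for Mapkapk2 the test against a 1.2-fold change. The other 6 were lost in more. Of the 24 members not past it, 22 stayed so in all. Higher members numbered 6, with 2 when zeros were kept, 2 with the Cy5 arrays alone, 1 against a 1.2-fold change and 2 to 5 with a set or array left out. Higher features numbered 826, and 492, 347 and 264 in the first 3 of these settings. Lower members numbered 5, with 2 when zeros were kept, 3 with Cy3 arrays alone, 3 against a 1.2-fold change and 3 to 5 with a set or array left out. Lower features numbered 837, and 470, 247 and 130 in the first 3 of these. With the set as a replicate block, 7 members were higher and 5 lower, and 6 and 5 with a dye term or no block. All features numbered 1089 higher and 1193 lower with the block, 908 and 957 with the dye term, and 690 and 686 with no block. Map3k2 was gained with the block (limma adjusted p = 0.0211) and with the dye term (0.0386). Mapk11 was lost with the dye term (0.0528). Lower pathway genes numbered 8, with 4 without set 1, 5 without set 3 and at most 9. The MAP3K median of -0.07 was -0.000127 with Cy5 arrays alone, -0.13 with Cy3 arrays alone, -0.14 without Map3k8 and -0.136 to -0.0133 with a set or array left out. The MAP4K median of 0.03 was 0.11 with Cy3 and -0.02 with Cy5 arrays alone, and the MAP2K median of 0.03 was -0.02 without set 3. The MAPKAPK median was 0.28 with zeros kept, 0.25 with Cy5 and 0.40 with Cy3 arrays alone, and 0.29 to 0.36 with a set or array left out. The binding median was -0.00892 with Cy5 arrays alone, and -0.118 to -0.0216 with a set or array left out. Mapk8 reversed from 0.01 to -1.20 with Cy5 arrays alone (limma adjusted p = 0.00342), against 1.21 with Cy3 arrays alone. The causes were not tested.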

Other observations

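Deposited ratios that leaned to one dye on every array, whichever RNA it held, were counted for the member probes. Of 59 complete member probes 4 leaned to Cy3 and 5 to Cy5, against 6.26% and 7.60% of all complete probes. Of 7 member probes measured on 3 to 5 arrays, 2 leaned to Cy3 and 1 to Cy5, against 10.7% and 19.1% of all such probes. The second Map3k2 probe had values on 3 arrays, of -3.33, 2.8 and 2.17 after turning, all of which leaned to Cy3 as deposited.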
